A study of Mus musculus with 6 samples.

Results

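The nuclear-encoded subunits of the mitochondrial oxidative phosphorylation machinery were described by complex in the retina of mice lacking Dicer1 in rods and of control littermates. Members were the genes of the deposited table whose symbols begin with Nduf followed by a, b, c, s or v, are Sdha to Sdhd, or begin with Uqcr, Cox4 to Cox8 or Atp5. The rule took 90 of the 22731 genes in the table. Of these, 82 encode structural subunits, 38 of complex I, 4 of complex II, 8 of complex III, 17 of complex IV and 15 of complex V. The other 8 (Ndufaf1 to Ndufaf4, Cox7a2l, Cox4nb, Atp5s and Atp5sl) are not structural subunits and were kept apart. The rule used symbols only, no measured value. Subunits encoded by mitochondrial DNA were not analysed here.

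All mice had 2 floxed Dicer1 alleles (Dicerfl/fl) on a mixed C57BL/6J and SJL background. The conditional knockouts (cKO) also carried the iCre75 transgene, in which the rod opsin promoter drives Cre recombinase, and the controls did not. Dicer1 encodes the ribonuclease that makes mature microRNAs. Each group had 3 libraries (cKO replicates 2, 3 and 4, and control replicates 1, 2 and 3), each from poly(A) RNA of whole retinas pooled from 4 mice at 4 weeks of age, collected between 8 and 10 in the morning. Cre-positive mice without floxed alleles were not analysed here, so effects of Cre itself and of Dicer1 loss cannot be told apart. Whole retina holds many cell types besides rods, and fewer cells of a type cannot be told apart from less RNA per cell.

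Oxidative phosphorylation passes electrons from NADH through complex I, or from succinate through complex II, to ubiquinone, then through complex III and cytochrome c to complex IV, where oxygen is reduced. Complexes I, III and IV pump protons across the inner mitochondrial membrane, and complex V, the ATP synthase, uses the gradient to make ATP. Rod and cone photoreceptors pack their inner segments with mitochondria, whose ATP serves ion pumping and phototransduction.

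The libraries held between 12336426 (cKO 4) and 32934561 (control 3) reads in genes, worked back from the deposited RPKM (reads scaled to gene model length and library depth). The targeted gene, Dicer1, had 8.48, 8.77 and 8.33 RPKM in controls 1, 2 and 3 and 8.02, 7.06 and 7.90 RPKM in cKO 2, 3 and 4. The groups did not overlap, with a log2 fold change of -0.15 (SE 0.079, n = 3 against 3, adjusted p = 0.931 by limma, exact permutation p = 0.1, the smallest this design allows). Dicer1 was read over the whole gene and all retinal cells, so its level does not measure deletion in rods. The labelled tissue showed its defining transcripts: summed over 8 rod markers, RPKM ran from 21370 to 24780 in controls and from 20180 to 22260 in cKO. Over 6 bipolar cell markers the sums did not overlap, at 231 to 258 RPKM in controls and 275 to 283 RPKM in cKO, and the part of this in other values was not tested. Of tissue that a dissected retina can carry, 7 pigment epithelium markers summed to 180.0 to 228.5 RPKM in controls and 207 to 224 RPKM in cKO. Of 13 skeletal muscle markers, 8 were under 1 RPKM in every library and the list summed to between 11.2 and 17.0 RPKM, while 6 lens markers summed to between 130 and 2349 RPKM. Of 6 red blood cell markers, 5 were under 1 RPKM in every library.

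The promoters of the subunits are shown first, as a description. The subunits varied together from library to library, as described below, and a link of promoter motifs to this was not tested. NRF1, ETS factors such as GABP, the oestrogen-related receptors (ERR) and YY1 are factors known for sites in such promoters. RefSeq promoters (GRCm38.p6, 250 bases before to 50 after the start) were matched for 67 of the 82 subunits. Below is the promoter in each complex with the most kinds of these 4 motifs, ties going to the more abundant gene, a choice made after the matches were seen. Sequences run 5′ to 3′ along the gene, with motif matches in capitals, on either strand. They lie at chr13:73328433-73328732 (Ndufs6), chr9:50603800-50604099 (Sdhd), chr10:80406772-80407071 (Uqcr11), chr5:115348909-115349208 (Cox6a1) and chr2:73911277-73911576 (Atp5g3), all on the minus strand.
Ndufs6: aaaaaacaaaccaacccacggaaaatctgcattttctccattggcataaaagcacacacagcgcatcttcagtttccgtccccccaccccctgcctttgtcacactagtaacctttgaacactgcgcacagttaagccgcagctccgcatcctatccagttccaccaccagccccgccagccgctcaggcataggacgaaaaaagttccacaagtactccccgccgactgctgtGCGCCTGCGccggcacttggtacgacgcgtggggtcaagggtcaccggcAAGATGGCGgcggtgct
Sdhd: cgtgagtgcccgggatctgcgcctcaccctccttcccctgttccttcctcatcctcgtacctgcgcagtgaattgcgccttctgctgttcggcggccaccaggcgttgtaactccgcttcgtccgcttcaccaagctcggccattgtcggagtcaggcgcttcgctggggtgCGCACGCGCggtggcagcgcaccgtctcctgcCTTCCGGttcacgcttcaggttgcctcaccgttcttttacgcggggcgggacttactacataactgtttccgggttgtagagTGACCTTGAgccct
Uqcr11: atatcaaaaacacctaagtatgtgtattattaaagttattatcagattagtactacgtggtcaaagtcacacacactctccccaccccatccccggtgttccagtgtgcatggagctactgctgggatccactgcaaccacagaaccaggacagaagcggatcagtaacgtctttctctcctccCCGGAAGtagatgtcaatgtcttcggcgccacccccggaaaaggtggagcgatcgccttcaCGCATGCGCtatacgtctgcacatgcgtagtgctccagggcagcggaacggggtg
Cox6a1: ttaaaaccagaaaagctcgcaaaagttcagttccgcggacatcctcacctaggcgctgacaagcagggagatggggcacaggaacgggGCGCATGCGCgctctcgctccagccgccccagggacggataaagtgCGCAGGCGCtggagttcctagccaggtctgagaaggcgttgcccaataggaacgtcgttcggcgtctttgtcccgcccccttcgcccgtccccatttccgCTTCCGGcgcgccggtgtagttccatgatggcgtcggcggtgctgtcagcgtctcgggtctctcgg
Atp5g3: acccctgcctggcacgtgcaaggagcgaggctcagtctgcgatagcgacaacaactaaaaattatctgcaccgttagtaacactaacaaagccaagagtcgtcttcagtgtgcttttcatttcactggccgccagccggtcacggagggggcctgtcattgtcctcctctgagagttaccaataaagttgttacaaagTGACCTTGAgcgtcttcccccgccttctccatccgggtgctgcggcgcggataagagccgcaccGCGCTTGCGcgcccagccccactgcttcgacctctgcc

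In capitals, the Ndufs6 promoter holds an NRF1 match and a YY1 match, that of Sdhd an NRF1, an ETS and an ERR match, those of Uqcr11 and Cox6a1 NRF1 and ETS matches, and that of Atp5g3 an ERR and an NRF1 match. The NRF1 motif was searched as GCGCNTGCG on both strands, and 23 of 67 subunits (34.3%) held it in a promoter. A gene counted if any of its promoters matched. The share was 7.12% of all 27025 genes with promoters and 15.3% of the 8863 other tested genes with promoters. The ETS motif CCGGAAG was in promoters of 23.9% of subunits, 9.93% of all genes and 19.1% of other tested genes. For YY1 (AAGATGGCG) the shares were 10.4%, 1.64% and 3.49%, and for ERR (TCAAGGTCA) 2.99%, 0.466% and 0.327%, the subunit share being Atp5g3 and Sdhd alone. Any of these 4 motifs was in promoters of 56.7% of subunits, against 33.3% of other tested genes. The CCAAT motif was as common in subunits (43.3%) as in other tested genes (43.0%), and TATAAA was in 10.4% against 8.6%. Matches of these motifs can overlap. They describe letters in a window and show neither binding nor a cause.

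No structural subunit was called higher or lower in cKO retina. A gene was tested if its level averaged 1 RPKM or more across libraries, which held for 77 of the 82 subunits. limma called 0 of the 77 higher and 0 lower at an adjusted p of 0.05, against 0.00794% of the 12599 tested genes called higher (1 gene, Prm1) and 0.0% called lower. The source of the Prm1 reads in retina carrying the Cre transgene was not tested. At an unadjusted p under 0.05 there was 1 subunit, Atp5l, where 5.71% of all tested genes passed. Groups did not overlap for Atp5l alone of the 77, against 11.7% of all tested genes. Atp5l reached the level for testing through the controls only (1.52 RPKM, against 0.806 RPKM in cKO), so a gene lower in cKO was favoured there and the count supports nothing. Point estimates were above 0 for 31 subunits and below 0 for 46, with a median log2 fold change of -0.017, beside -0.005 over all tested genes.

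By complex, the median log2 fold change was -0.029 for 37 tested subunits of complex I, -0.018 for 4 of complex II, -0.015 for 8 of complex III, -0.004 for 14 of complex IV and -0.002 for 14 of complex V. Within complex I, the NADH-oxidising N module (8 subunits) had a median of -0.03, the ubiquinone-reducing Q module (5 subunits) 0.02 and the other 24 subunits, mostly of the membrane arm, -0.05. The bounds on these differences were wide. The 95% confidence interval of a subunit reached a median of 0.41 on the log2 scale to either side of its estimate, against 0.24 over all tested genes. A miss of the threshold therefore does not show equal levels.

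**Figure D1:**
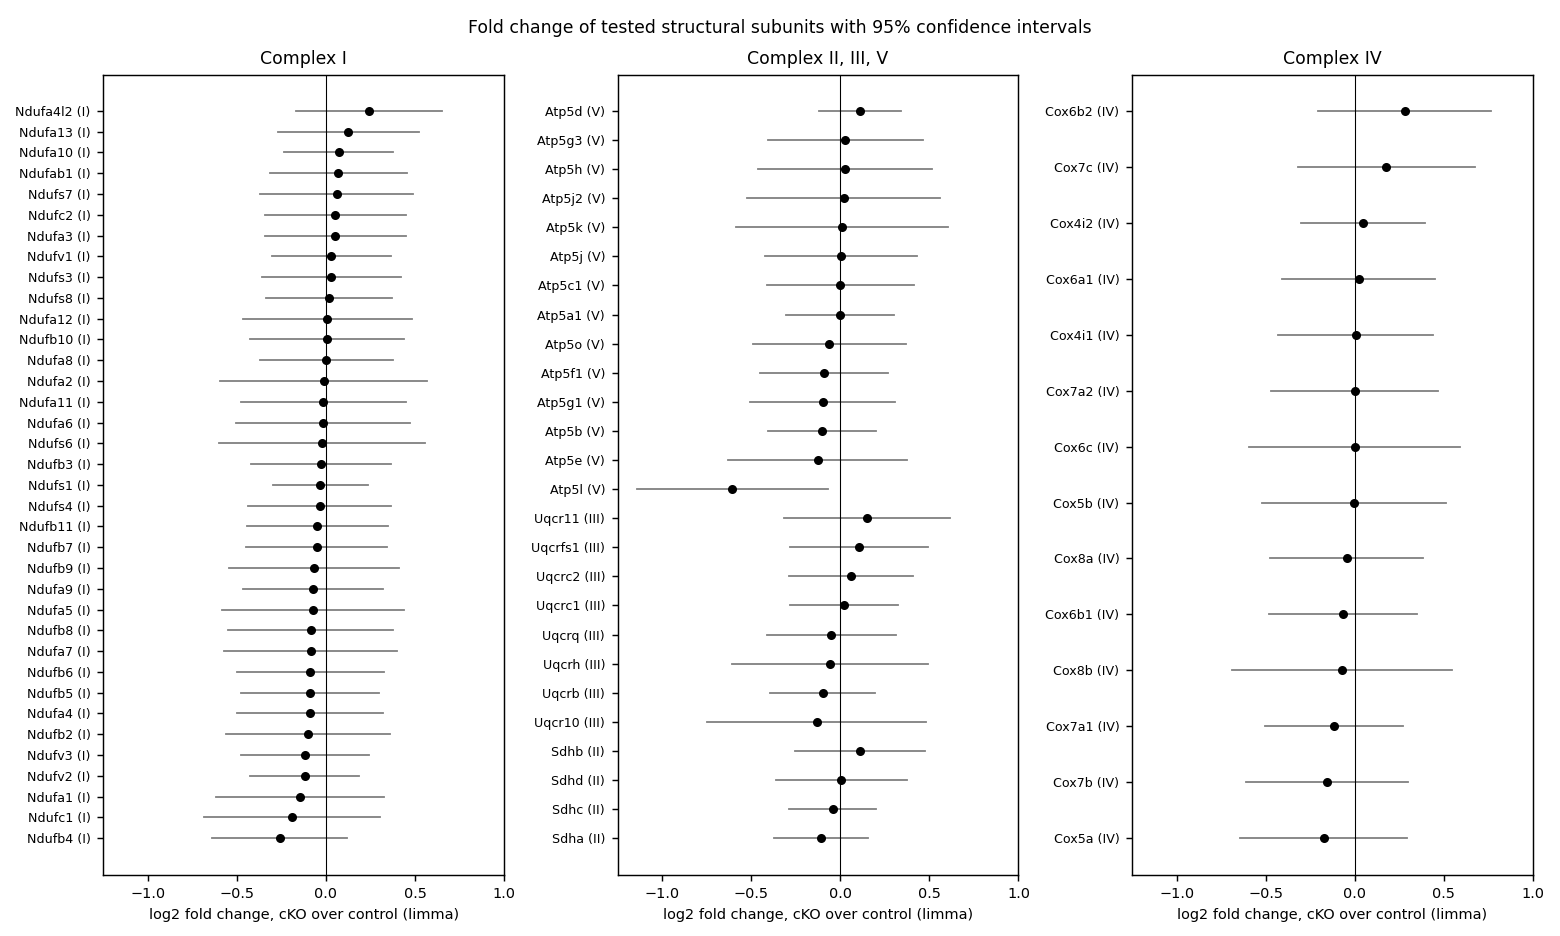
Log2 fold change (cKO over control, limma on log2(RPKM + 0.5)) of tested structural subunits, sorted within each complex; points are estimates and lines are 95% confidence intervals. The interval of Atp5l, from -1.14 to -0.07, is the only interval drawn that lies wholly to one side of 0; it was tested only because its control level was above 1 RPKM.

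Complex I takes electrons from NADH. Its most abundant subunit here was Ndufb9, an accessory subunit of the membrane arm, at 188, 144 and 229 RPKM in controls 1, 2 and 3 and 139, 180 and 215 RPKM in cKO 2, 3 and 4. Both groups ran from a low to a high library and overlapped. Ndufs7, a core subunit near the ubiquinone site, averaged 150 ± 27.3 (control) and 157 ± 33.5 (cKO) RPKM (mean ± SD, n = 3 each). Other subunits reached down to Ndufab1, the mitochondrial acyl carrier protein, with control values of 1.61 ± 0.223 RPKM and cKO values of 1.74 ± 0.472 RPKM. Ndufs5 was listed at 0 in all 6 libraries. Of the 903 distinct 50-base stretches of its annotated coding transcripts, 196 (21.7%) occur in a transcript of another gene. Such stretches are treated below for Atp5l, and their part in the 0 was not tested.

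The subunits of complex I with the smallest p above 0 were Ndufa4l2 and Ndufa13, and below 0 Ndufb4 and Ndufv2. Ndufa4l2 is known as a hypoxia-inducible paralog of Ndufa4. It had 3.17, 4.29 and 5.62 RPKM in controls 1, 2 and 3 and 4.54, 5.28 and 5.63 RPKM in cKO 2, 3 and 4. Its log2 fold change was 0.24 (SE 0.177, adjusted p = 0.972 by limma), or 0.056 without control 1, and the groups overlapped. Ndufb4, an accessory membrane arm subunit, had 10.4, 7.01 and 6.63 RPKM in controls and 5.75, 7.19 and 6.55 RPKM in cKO, in the same library order. The high value was control 1, and the log2 fold change was -0.26 (SE 0.164, adjusted p = 0.957 by limma), or -0.070 without that library. Ndufa13 and the core subunit Ndufv2 had log2 fold changes of 0.12 and -0.12 (SE 0.171 and 0.132, adjusted p = 0.997 for both by limma).

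Complex II, which is also an enzyme of the tricarboxylic acid cycle, has 4 subunits, all nuclear-encoded. Its catalytic flavoprotein Sdha had 108, 93.4 and 116 RPKM in controls 1, 2 and 3 and 92.8, 93.3 and 108 RPKM in cKO 2, 3 and 4. These values overlapped, and the log2 fold change was -0.11 (SE 0.114, adjusted p = 0.995 by limma). The membrane anchor Sdhc averaged 80.7 ± 7.66 (control) and 78.3 ± 5.96 (cKO) RPKM, and the other anchor, Sdhd, 51.8 ± 8.78 and 52.0 ± 8.96 RPKM. Sdhb, the iron-sulphur subunit, had 68.3 ± 10.5 and 74.0 ± 12.9 RPKM, with a log2 fold change of 0.11 (SE 0.157, adjusted p = 0.997 by limma). Complex II subunits varied less between libraries than those of the other complexes: their median log2 range over the 6 libraries was 0.41, against 0.60 to 0.73 in complexes I, III, IV and V. The 4 genes are also longer, with a median gene model of 1232 bases against 524.5 to 765 bases in those complexes.

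Complex III passes electrons from ubiquinol to cytochrome c. The core protein Uqcrc1 was its most abundant member, with 223 ± 30.5 RPKM in control and 226 ± 23.7 RPKM in cKO retina, followed by the small hinge subunit Uqcrh (181 ± 43.3 and 175 ± 48.5 RPKM) and Uqcrq (169 ± 24.2 and 164 ± 27.5 RPKM). The small subunit Uqcr11 had 98.9, 83.4 and 121 RPKM in controls 1, 2 and 3 and 84.9, 114 and 141 RPKM in cKO 2, 3 and 4. It was low in replicate 2 of both groups, with a log2 fold change of 0.15 (SE 0.201, adjusted p = 0.997 by limma). Uqcrb, at 9.54 ± 0.695 and 8.96 ± 1.60 RPKM, was the least abundant member, and its log2 fold change was -0.10 (SE 0.127, adjusted p = 0.997 by limma). Of the complex III and cytochrome c genes outside the naming rule, Cyc1, the cytochrome c1 of complex III, had 198 ± 29.3 and 196 ± 25.4 RPKM. Cycs, the somatic cytochrome c, was listed at 0.729 ± 0.0609 and 0.690 ± 0.0581 RPKM and did not reach the level for testing. Sequence shared with other genes was not counted for Cycs, so its low listing does not show a low transcript level.

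Complex IV, cytochrome c oxidase, is built around subunits of mitochondrial DNA, with the nuclear members described here around them. Cox4i1, the common form of subunit 4, had 389.5, 303 and 427 RPKM in controls 1, 2 and 3 and 297, 374 and 460 RPKM in cKO 2, 3 and 4, and the controls lay within the range of the cKO. Cox8a averaged 349 ± 73.0 (control) and 337 ± 62.8 (cKO) RPKM, and Cox6a1 222 ± 34.5 and 228 ± 51.4 RPKM. Cox6b2, the testis form of subunit 6b, had 6.78, 4.25 and 7.19 RPKM in controls and 6.41, 6.47 and 9.41 RPKM in cKO. The values overlapped (log2 fold change 0.28, SE 0.21, adjusted p = 0.974 by limma), and without control 2 the log2 fold change was 0.063. The small subunits Cox7c and Cox7b had log2 fold changes of 0.18 (SE 0.214) and -0.15 (SE 0.197), and Cox5a, a subunit on the matrix side, -0.17 (SE 0.203), each with an adjusted p of 0.997 by limma. Cox7c rested on as few as 11 reads in a library.

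Complex V makes ATP with a catalytic F1 head, a rotating c ring and a peripheral stalk. The catalytic subunit Atp5b was the most abundant of all 82 subunits, at 689, 604 and 798 RPKM in controls 1, 2 and 3 and 603, 630 and 705 RPKM in cKO 2, 3 and 4. Its lowest libraries were the replicates numbered 2, and its log2 fold change was -0.10 (SE 0.132, adjusted p = 0.997 by limma). Atp5a1, the other large F1 subunit, averaged 368 ± 49.8 (control) and 367 ± 35.9 (cKO) RPKM, and Atp5g3, a gene for the c ring, 272 ± 50.5 and 278 ± 58.1 RPKM, with a log2 fold change of 0.03 (SE 0.188, adjusted p = 0.997 by limma). Atp5d, the delta subunit of the central stalk, had 229, 235 and 255 RPKM in controls and 251, 280 and 246 RPKM in cKO. Its library order was unlike that of other subunits, and its log2 fold change was 0.11 (SE 0.10, adjusted p = 0.990 by limma).

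Atp5l encodes subunit g of the membrane part of ATP synthase. It had 2.26, 1.10 and 1.20 RPKM in controls 1, 2 and 3 and 0.557, 1.09 and 0.773 RPKM in cKO 2, 3 and 4. The highest cKO library and the lowest control library stood close together, and control 1 lay far above the other controls. The log2 fold change was -0.61 (SE 0.232, p = 0.0314, adjusted p = 0.853 by limma, exact permutation p = 0.1), and it was not called. Without control 1 the log2 fold change was -0.36, and the values rested on 6 to 40 reads per library. Of the 495 distinct 50-base stretches in its annotated coding transcripts (GENCODE M21), 420 (84.8%) also occur, on either strand, in transcripts of 14 other genes. How reads matching several genes were counted is not given in the sources used here, and the part of shared sequence in its level was not tested. Across the 82 subunits the shared percentage had a Spearman correlation of -0.21 with mean RPKM, a description only. Low members with shared stretches included Uqcrb (43.4%), Atp5g2 (38.3%) and Ndufb4 (37.0%). Abundant members with shared stretches included Atp5o (45.6%, mean 80.3 RPKM) and Cox5a (32.0%, mean 84.8 RPKM). The low Cox7a1, Cox8b and Ndufa4l2 shared 0.0%. The part of shared sequence in these levels was not tested. The stretch length and these genes were chosen after the values were seen.

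**Figure D2:**
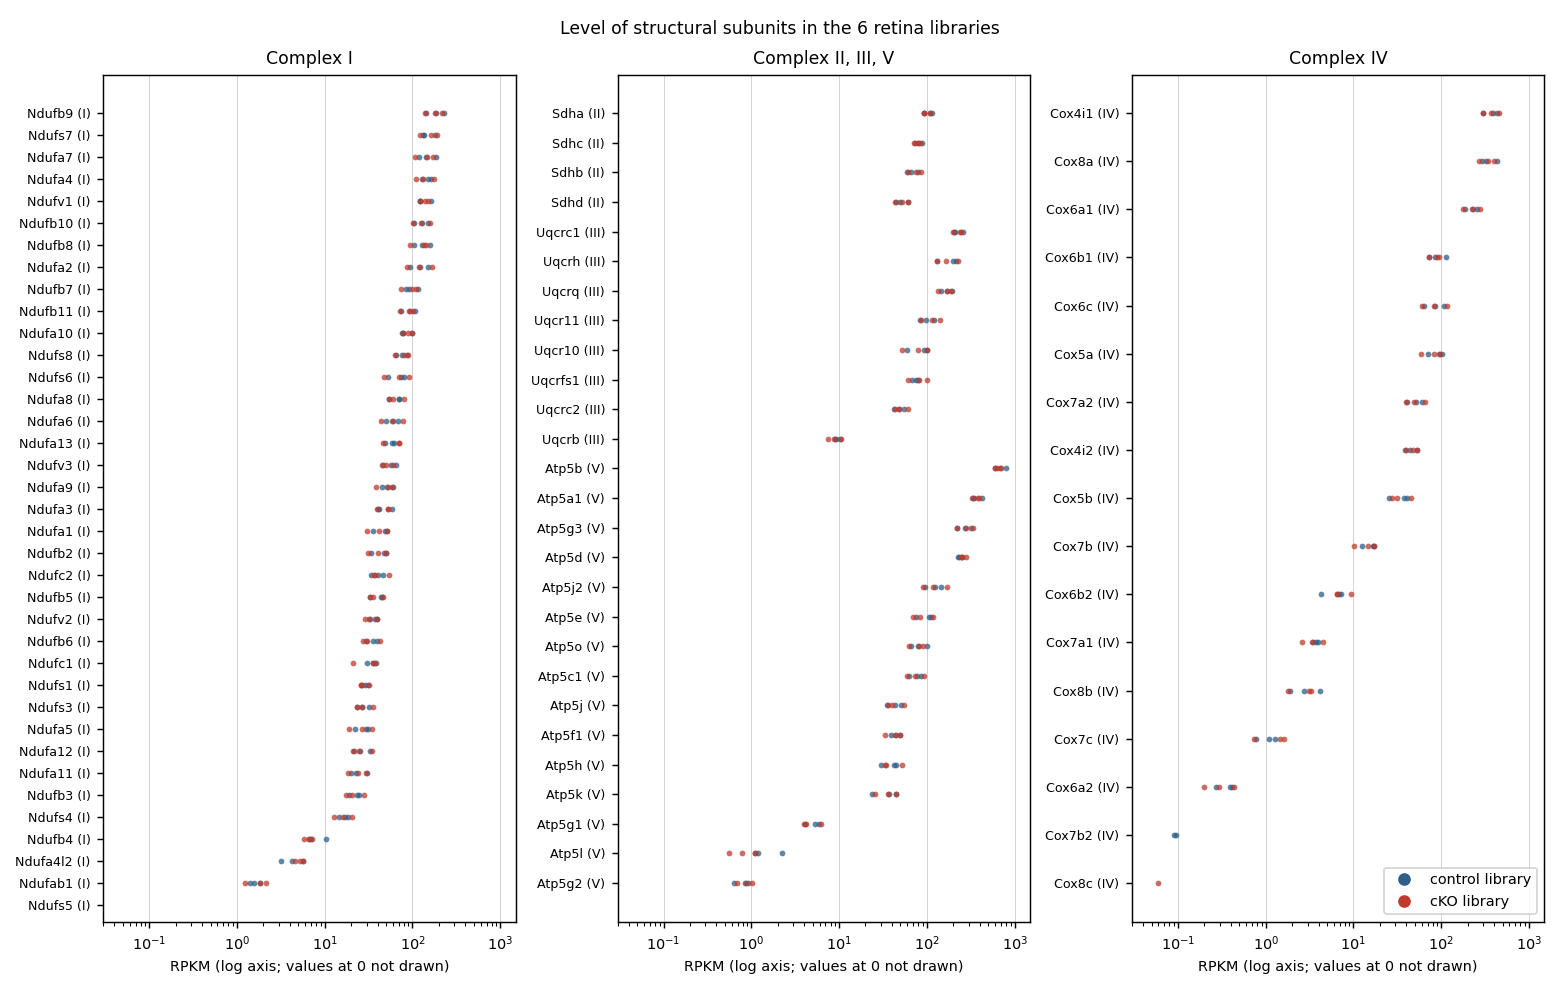
RPKM (log axis) of structural subunits in the 6 libraries, sorted by mean level within complexes; blue points are control and red points cKO libraries, and values at 0 are not drawn. The 2 groups are intermixed at nearly every subunit, and Ndufs5 has no point because it is listed at 0 throughout.

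Several subunits exist as paralogs, of which some are known for expression in heart and skeletal muscle (Cox6a2, Cox7a1 and Cox8b), testis (Cox6b2, Cox7b2 and Cox8c) or lung and low oxygen (Cox4i2). RPKM is scaled to gene length, but a length trend and shared sequence remain in it, so levels compared between genes are approximate. Cox4i2 averaged 45.6 ± 7.52 (control) and 47.0 ± 6.91 (cKO) RPKM and made up 10.3% to 11.8% of the summed RPKM of Cox4i1 and Cox4i2. Cox6b2 made up 5.58% to 9.06% of its pair, with 7.32%, 5.58% and 5.96% in controls 1, 2 and 3 and 8.21%, 6.70% and 9.06% in cKO 2, 3 and 4. These shares overlapped (exact permutation p = 0.2). Cox7a1 made up 5.83% to 7.68% of Cox7a1 and Cox7a2, and Ndufa4l2 2.07% to 3.94% of Ndufa4 and Ndufa4l2. Ndufa4 is placed under complex I by its name, although its protein is found in complex IV.

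The other paralogs were scarce. Cox6a2 averaged 0.360 ± 0.0765 (control) and 0.310 ± 0.117 (cKO) RPKM, or 0.0717% to 0.244% of its pair. Cox8b had 2.94 ± 1.14 and 2.73 ± 0.816 RPKM, or 0.439% to 1.27% of its set. Cox7b2 was listed above 0 in controls 2 and 3 alone and Cox8c in cKO 3 alone, with at most 2 reads and 1 read. Among the 3 genes that encode the same mature c-ring protein, Atp5g3 made up 97.6% to 98.3%, Atp5g1 1.41% to 2.10% and Atp5g2 0.279% to 0.308%. No paralog share separated the groups, and over the 8 sets the exact permutation p ranged from 0.2 to 1.0. The muscle form Cox7a1 averaged 3.73 ± 0.270 and 3.48 ± 0.982 RPKM. The 13 skeletal muscle markers, 8 of them under 1 RPKM throughout, summed to between 11.2 and 17.0 RPKM. The source of the Cox7a1 reads was not tested.

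**Figure D3:**
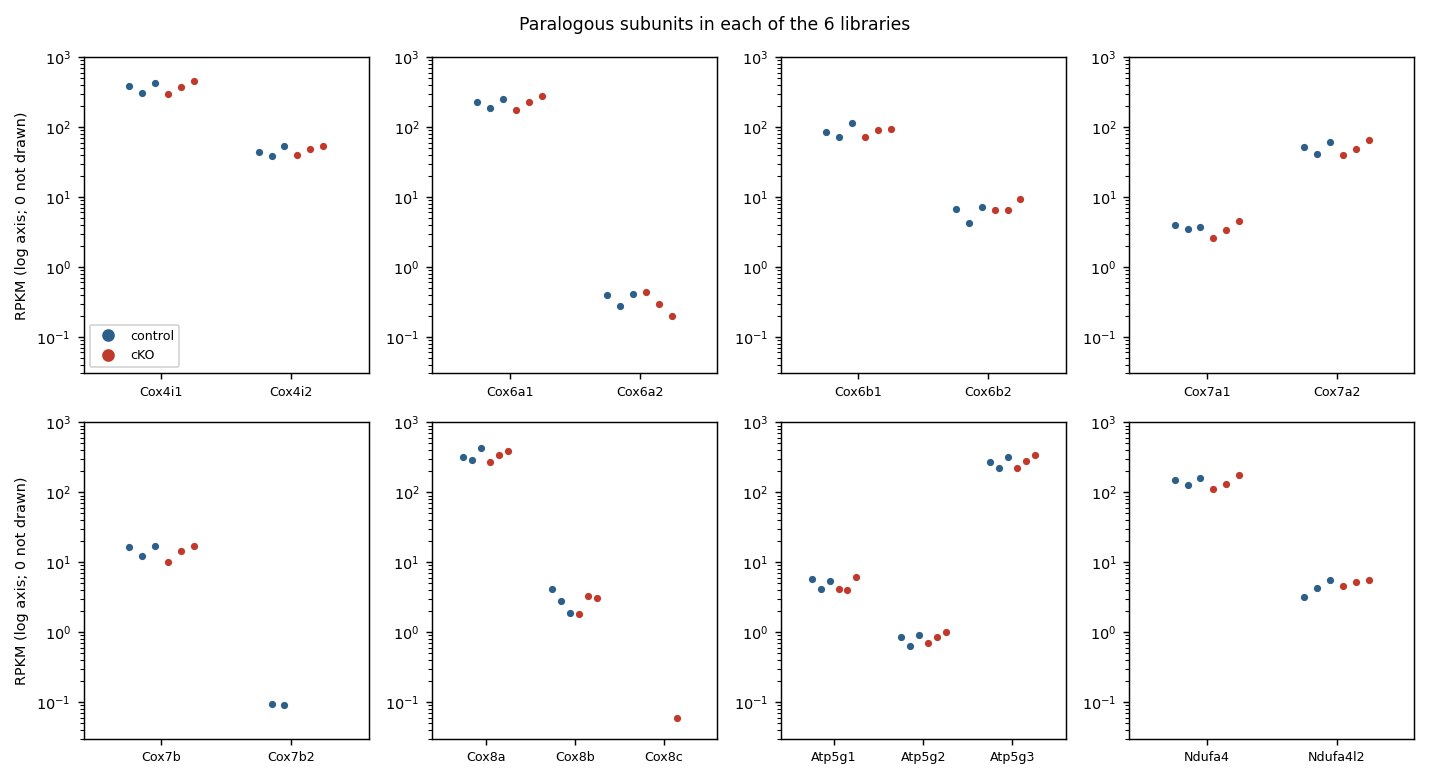
RPKM (log axis; 0 not drawn) of paralogous subunits in the 3 control (blue) and 3 cKO (red) libraries. Within each set the order of the paralogs is the same in all libraries, and Cox4i2 stands closest to its partner.

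The subunits varied together between libraries of both genotypes. Their median log2 deviation from each gene's mean was -0.31 in cKO 2 and -0.22 in control 2, near 0 in cKO 3 and 0.05 in control 1, and 0.29 in cKO 4 and 0.22 in control 3. Over all tested genes the same medians lay between -0.04 and 0.05. Medians for 74 mitochondrial ribosomal protein genes were -0.23 in cKO 2, -0.17 in control 2, 0.22 in cKO 4 and 0.22 in control 3. For 69 cytosolic ribosomal protein genes they were -0.26, -0.19, 0.18 and 0.22, so the pattern was not particular to the subunits. cKO 2 was the lowest library for 58 of the 77 subunits and control 2 for 15, while cKO 4 was the highest for 47 and control 3 for 24. In all 5 complexes cKO 2 and control 2 had the lowest medians and cKO 4 and control 3 the highest. Summed over the 82 subunits, RPKM was 7238, 6075 and 8356 in controls 1, 2 and 3 and 5850, 7144 and 8423 in cKO 2, 3 and 4, or 2.06% to 2.68% of all RPKM. The group means were 7223 ± 1141 and 7139 ± 1287 RPKM, closer to each other than the libraries of either group.

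**Figure D4:**
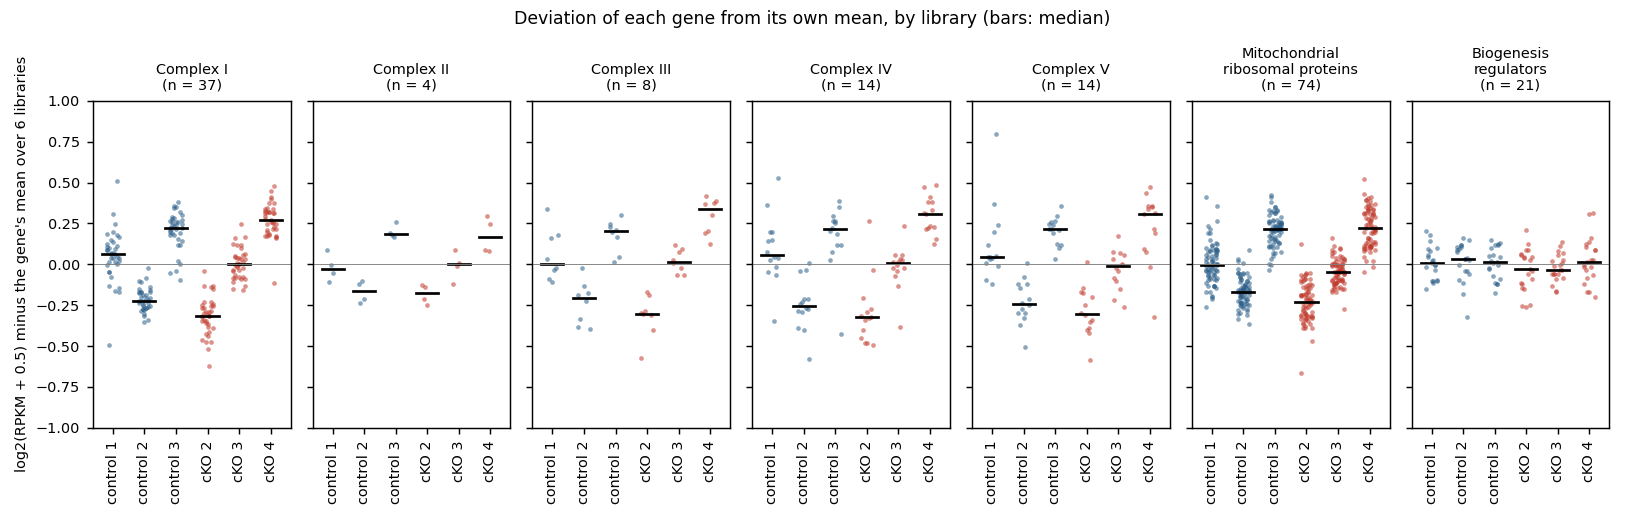
Deviation of each gene's log2(RPKM + 0.5) from its mean over 6 libraries, by library, for the 5 complexes, mitochondrial ribosomal proteins and mitochondrial biogenesis regulators; points are genes, black bars medians, blue control and red cKO. In the complexes and the mitochondrial ribosomal proteins, cKO 2 and control 2 are low and cKO 4 and control 3 high. The medians of the biogenesis regulators stay near 0.

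Gene length moved with this pattern. The subunits' gene models, worked back from RPKM, had a median of 679 bases, against 2857 bases over all tested genes. Among 393 other genes with models over 500 and up to 800 bases, median deviations were -0.24 in cKO 2, -0.18 in control 2, 0.22 in cKO 4 and 0.21 in control 3. The 32 subunits of that length had -0.32, -0.27, 0.32 and 0.24. In models over 1200 and up to 2000 bases, 2337 other genes had -0.12, -0.1, 0.13 and 0.12 in the same library order. The 15 subunits of that length had -0.27, -0.18, 0.22 and 0.21. Over 2000 and up to 4000 bases, other genes had -0.04, -0.05, 0.05 and 0.04. The 4 subunits there had -0.15, -0.13, 0.13 and 0.21. Among other genes over 4000 bases, a class with 0 subunits, medians lay between -0.03 and 0.03. Across the 77 subunits, the log2 range over libraries had a Spearman correlation of -0.64 with gene model length, -0.25 with mean level and -0.04 with GC content of the longest coding transcript, as descriptions over genes that share libraries. With a trend on length removed from each library, the subunits' medians were -0.09, 0.02 and 0.12 in cKO 2, 3 and 4 and 0.01, -0.08 and 0.06 in controls 1, 2 and 3. The part of fragment size, RNA quality or depth in this was not tested.

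**Figure D5:**
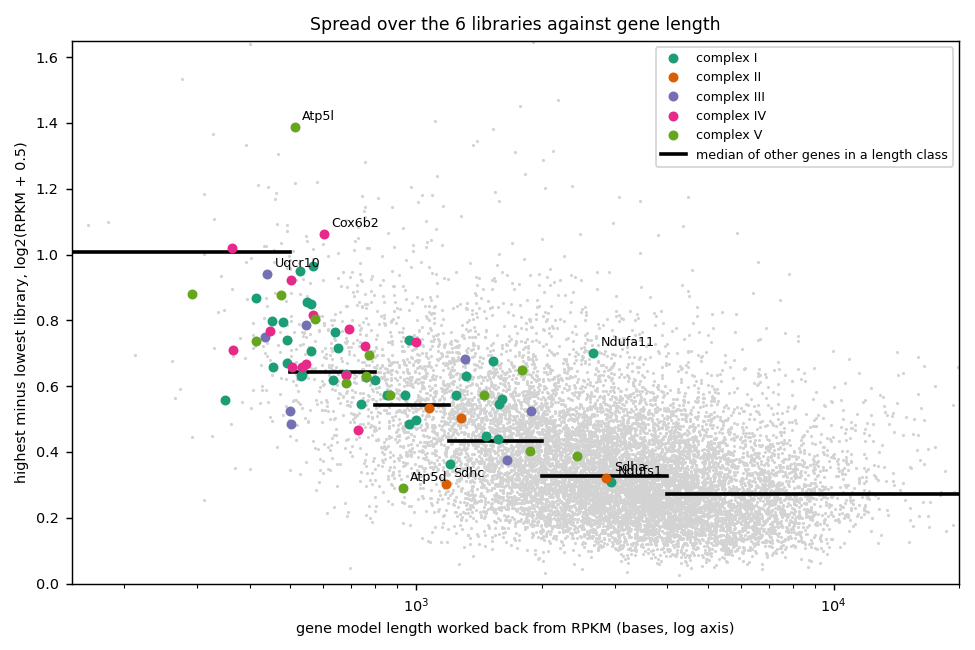
Log2 range over the 6 libraries against gene model length (log axis) for tested subunits, coloured by complex, and other tested genes (grey), with black bars for the median of other genes in each length class. Short genes range more widely than long ones, Atp5l has the widest range of the subunits (1.39) and Atp5d the narrowest (0.29).

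The non-structural genes taken by the rule were all measured. The complex I assembly factors Ndufaf1 to Ndufaf4 ranged from 3.90 ± 1.27 RPKM (Ndufaf4, cKO) to 32.6 ± 7.79 RPKM (Ndufaf3, cKO). Cox7a2l is known for a part in joining complexes III and IV into supercomplexes, which was not examined in these mice. It had 50.7, 40.8 and 55.3 RPKM in controls 1, 2 and 3 and 37.3, 44.7 and 46.9 RPKM in cKO 2, 3 and 4. Its log2 fold change was -0.18 (SE 0.138, adjusted p = 0.980 by limma). Cox4nb, a member of the endoplasmic reticulum membrane complex despite its symbol, had 22.8 ± 1.28 and 24.3 ± 0.393 RPKM. At 4933 bases it was the longest of the 90 genes, and its log2 range over libraries was 0.19. Atp5s and Atp5sl had 4.13 ± 0.268 and 23.7 ± 2.70 RPKM in controls and 3.81 ± 0.548 and 25.1 ± 2.04 RPKM in cKO.

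Genes that assemble, feed or regulate the chain were read from the same fit, and none was called. Assembly factors tested were 10 for complex I, 3 for complex II, 4 for complex III, 12 for complex IV and 3 for complex V. None of them reached an unadjusted p under 0.05, which 5.71% of all tested genes passed. The carriers of ATP and phosphate, Slc25a4 and Slc25a3, had 753 ± 117 and 221 ± 37.2 RPKM in controls and 759 ± 111 and 221 ± 43.6 RPKM in cKO. In the tricarboxylic acid cycle 0 of 18 genes reached that p by limma, and the median log2 fold change was -0.01. In lists this small, counts of 0 lie near the share over all tested genes and say little about the listed genes. Median log2 fold changes were -0.03 over 74 mitochondrial and -0.09 over 69 cytosolic ribosomal protein genes.

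Of 21 tested regulators of mitochondrial biogenesis, 1 was higher and 2 were lower at an unadjusted p under 0.05, which 5.71% of all tested genes passed. Peo1, the mitochondrial DNA helicase Twinkle, had 4.08, 4.23 and 4.18 RPKM in controls 1, 2 and 3 and 3.51, 3.53 and 3.22 RPKM in cKO 2, 3 and 4. The groups stood apart, with a log2 fold change of -0.25 (SE 0.076, p = 0.0107, adjusted p = 0.848 by limma, exact permutation p = 0.1). Of the coactivators, Ppargc1b had 27.6 ± 0.681 and 25.5 ± 1.02 RPKM without overlap (log2 fold change -0.11, adjusted p = 0.965 by limma), and Ppargc1a 6.26 ± 0.555 and 5.51 ± 0.286 RPKM with overlap (log2 fold change -0.17, adjusted p = 0.925 by limma). The factors Nrf1, Esrra and Tfam had 10.8 ± 0.609, 17.9 ± 2.31 and 4.66 ± 0.414 RPKM in controls and 11.5 ± 0.572, 18.9 ± 2.55 and 4.68 ± 1.07 RPKM in cKO. Among hypoxia targets, Pdk1, a kinase that holds back pyruvate dehydrogenase, had 8.75, 8.77 and 8.34 RPKM in controls and 10.0, 10.1 and 11.2 RPKM in cKO, with a log2 fold change of 0.26 (SE 0.078, p = 0.0103, adjusted p = 0.848 by limma, exact permutation p = 0.1).

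Usmg5, a small ATP synthase subunit whose symbol the rule does not take, had 1.11, 0.978 and 1.52 RPKM in controls 1, 2 and 3 and 1.91, 1.96 and 2.33 RPKM in cKO 2, 3 and 4. All cKO libraries lay above all controls. The log2 fold change was 0.60 (SE 0.136, p = 0.00224, adjusted p = 0.554 by limma, exact permutation p = 0.1), on 12 to 24 reads per library, and it was not called. Its complex V partners outside the rule, Atpif1, the inhibitor of ATP hydrolysis, and 2010107E04Rik, had 80.1 ± 14.2 and 43.4 ± 8.53 RPKM in controls and 76.0 ± 20.2 and 38.0 ± 7.87 RPKM in cKO.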

How the data were processed

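The authors deposited a table of RPKM values per gene and library, 1 column for each of the 6 retina libraries. GSNAP, HTSeq and the mm9 build are named in the submitters' processing notes, without versions. The length model and the treatment of reads with several matches are not given in the sources here. Second strands were made without a strand mark per the labels' protocols, so reads of overlapping and antisense genes cannot be told apart by strand. RPKM depends on all genes of a library, and a trend with gene length stays in it.

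Whole reads, gene model lengths and depths were worked back from the steps of the RPKM values, with whole reads found for 19138 of 19140 genes above 0, a fit by construction. The main test was limma (version 3.58.1, R 4.3.3) on log2(RPKM + 0.5) with the variance trended on level and no covariates, for 12599 genes averaging 1 RPKM or more, two-sided, with Benjamini-Hochberg adjustment over all of them and a threshold of 0.05. It was also run on simulated reads, drawn independently for each gene. Those lacked the trend with gene length that differs between libraries, so that run does not bear on the subunits' spread. Fold changes on this scale understate changes of low genes. Single values were also compared by exact permutation (two-sided, smallest possible p 0.1). Replicates are pools of mice, so p-values measure the spread between pools. Promoters came from RefSeq (GRCm38.p6) and transcripts from GENCODE M21, on another build than the authors' and matched by symbol.

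The members and lists were chosen with earlier results of these data known, and lists are described by counts and medians. Genes are named by a rule: in each complex the 3 highest means and, by direction, the smallest p, all paralogs, members under 1 RPKM and non-structural genes, and in other lists the most abundant genes and the smallest p. Ndufab1, Sdhd, Atp5o and Prm1 are named outside it, after their values were seen. Some genes that the rule names are not reported here and not drawn by name. Alternatives changed the pseudocount, the filter, the variance trend, the scaling, the replicate block and the libraries.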

Additional observations from a re-analysis of the deposited data

How the results depend on the processing

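Under the 19 alternatives no structural subunit was called, and 0 of the 451 combinations of 24 named genes and alternatives passed the threshold. The direction of a named gene's fold change was kept in 433 of them. Leaving out a library turned the fold change or moved it by over 1.5 times for 20 of the 24, the others being Pdk1, Peo1, Ppargc1b and Usmg5. The median log2 fold change of the 77 subunits had no stable sign: leaving out a library moved it between -0.173 (without cKO 4) and 0.121 (without cKO 2), and between -0.197 and 0.147 in single complexes. With the length trend removed, groups did not overlap for 2 subunits, both higher in cKO, in place of 1, beside 905 higher and 854 lower of the 12599 tested genes.

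Over the whole table, genes called higher numbered 2 with a mean of at least 5 RPKM, 2 with no variance trend, 3 with medians set equal and 3 with the length trend removed. With no filter 8 genes were called lower, each listed at 0 in all cKO libraries and under 0.3 RPKM in controls. In 3 alternatives chosen after the data were seen, leaving out only genes at 0 in all libraries called 2 lower, voom on the worked-back reads called 2 genes higher and 1 lower, and leaving out both low libraries, chosen for their low subunit levels, called 3 higher and 2 lower. The cause of these moves was not tested.

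Replicate numbers 2 and 3 occur in both groups, and nothing in the labels ties them to a shared batch. Deviations correlated at 0.465 for the number 2, at -0.052 for the number 3 and at 0.476 between cKO 4 and control 3, so the numbers were not taken as pairs; whether the libraries numbered 2 share a batch was not tested. With the replicate block on these 4 libraries, 86 genes were called higher and 106 lower, none of them a subunit, with 19 subunits at an unadjusted p under 0.05, which 18.2% of all tested genes passed. The same 4 libraries without the block gave 1 higher, 0 lower and 0 subunits at that p. In that block and in the same libraries without it, the log2 fold changes turned to -0.109 for Atp5g3, -0.101 for Cox7c, -0.00555 for Ndufa4l2, -0.0338 for Sdhb and -0.0271 for Uqcr11. Quantile normalization turned Atp5g3 to -0.0504.

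Leaving out a library turned Atp5g3 (ranging from -0.119 to 0.186), Sdhb (-0.00743 to 0.246), Uqcr11 (-0.0204 to 0.341), Cox5a (-0.333 to 0.0227), Cox7b (-0.311 to 0.0487) and Uqcrb (-0.224 to 0.0187). Low read numbers limit Atp5l, Cox7c and Usmg5, and the cause of each turn was not tested.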
